A study of Mus musculus with 20 samples.

Results

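The 10 genes described here are markers of endothelial cells, the cells that line blood vessels. They were taken by name from the 50559 genes counted in each library: Pecam1, Cdh5, Kdr, Tek, Eng and Ramp2, which most endothelial cells express, Stab2, Lyve1 and Clec4g, which mark the endothelium of the liver sinusoids, and Vwf, which marks larger vessels. All 10 were found in both count tables, and all 10 passed the filter on low counts. Gene expression had been measured by RNA sequencing in 20 libraries from individual mice, 5 in each of 4 groups. The groups were tumors raised with Aldafermin + MYC, with FGF19 + MYC and with sgTrp53 + MYC, and livers without tumors. FGF19 is a gut hormone that acts on hepatocytes, Aldafermin is an engineered analog of it, MYC is an oncogene and sgTrp53 is a guide RNA against the tumor suppressor gene Trp53.

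The mice were wild type C57Bl6J females, 6 to 8 weeks old when plasmids were delivered to the liver by hydrodynamic gene transfer, a rapid injection of a large volume into the tail vein. MYC was expressed from an EF1a promoter and inserted with the Sleeping Beauty transposase, in a subset of hepatocytes only, so that the endothelial cells were host cells around transfected hepatocytes. The labels call the livers non treated, whereas the study describes them as transfected with an RFP plasmid. For sgTrp53 + MYC tumors the treatment label reads none, and the group was taken from the sample titles.

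In the liver, blood flows through sinusoids, whose endothelium has open pores and no continuous basement membrane. Sinusoidal endothelial cells take up waste molecules through scavenger and lectin receptors such as stabilin-2, and they release factors that regulate hepatocyte growth and zonation. Endothelium of other capillaries and of larger vessels is closed, rests on a basement membrane and expresses other genes, and sinusoidal endothelium is known to take on such features in chronic liver disease and in liver tumors. The libraries were made from whole tissue, so fewer endothelial cells and less RNA of a gene per endothelial cell cannot be told apart.

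The promoters of the members were looked up among RefSeq promoter sequences (table build GRCm38.p6), which held 5 of the 10. For Clec4g, Stab2 and Kdr, the lectin receptor, the scavenger receptor and the growth factor receptor that the values below turn on, the 250 bases before the start of the RefSeq gene are shown 5′ to 3′ along the gene. They match GRCm39 once each, on the minus strand, at chr8:3770652-3770901, chr10:86843807-86844056 and chr5:76139116-76139365. The gene spans given below come from another annotation, GENCODE, whose outermost starts lie farther upstream, so that the Kdr window lies inside its span and the Clec4g and Stab2 windows reach into theirs. Capitals mark matches, on either strand, to AGGAAG or CCGGAA (letters around the GGAA core that ETS factors recognize) or ACAAT (a core of SOX factor sites).
Clec4g: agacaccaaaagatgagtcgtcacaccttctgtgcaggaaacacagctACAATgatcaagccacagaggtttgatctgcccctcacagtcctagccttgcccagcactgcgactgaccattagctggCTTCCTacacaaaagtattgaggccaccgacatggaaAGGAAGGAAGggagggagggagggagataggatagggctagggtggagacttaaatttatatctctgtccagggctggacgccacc
Stab2: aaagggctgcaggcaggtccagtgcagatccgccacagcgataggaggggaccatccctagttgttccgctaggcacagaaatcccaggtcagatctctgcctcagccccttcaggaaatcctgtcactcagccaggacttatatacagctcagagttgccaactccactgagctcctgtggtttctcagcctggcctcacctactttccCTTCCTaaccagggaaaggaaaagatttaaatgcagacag
Kdr: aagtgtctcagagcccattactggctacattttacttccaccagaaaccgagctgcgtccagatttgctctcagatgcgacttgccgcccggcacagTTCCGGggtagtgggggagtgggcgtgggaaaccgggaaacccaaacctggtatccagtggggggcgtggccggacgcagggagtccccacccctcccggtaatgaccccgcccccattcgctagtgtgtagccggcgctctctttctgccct
The Clec4g window held AGGAAG 3 times, starting 123, 86 and 82 bases before the RefSeq start, the last pair overlapping, and ACAAT once, at 202 bases. The Stab2 window held AGGAAG once, at 40 bases, and the Kdr window held CCGGAA once, at 153 bases. Of all 32851 promoter windows of this length, 29.5% held AGGAAG, 12% CCGGAA and 27.7% ACAAT, so these letters are common. The longer ETS pattern searched, ACAGGAA, occurred in 7.2% of all windows and in none of the 5. The pattern for GATA factors, AGATAA, was likewise missing from all 5, where 9.99% of all windows held it. Tek and Eng had windows too, with ACAAT in that of Tek and AGGAAG in that of Eng. No window was at hand for Pecam1, Cdh5, Lyve1, Vwf and Ramp2.

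Libraries of Aldafermin + MYC tumors, FGF19 + MYC tumors and livers came in one table and held 18004977 to 44427184 reads on genes. Those of sgTrp53 + MYC tumors came in another and were deeper, with 54042455 to 66354724 reads, so an effect of the table and an effect of these tumors cannot be told apart. In the latter, 11.112% to 14.597% of reads fell on more than one gene, against 3.026% to 6.296% in the other. Trp53 itself stood at 18.7 to 79.6 CPM (counts scaled to library size with TMM factors, the unit of every level below) in sgTrp53 + MYC tumors, against 90.7 to 176.1 in Aldafermin + MYC tumors, 109.5 to 154.7 in FGF19 + MYC tumors and 28.8 to 36.4 in livers. A guide RNA changes the gene and need not lower its transcript. The labelled tissue carried its markers: 8 hepatocyte genes summed to 187326 to 237278 CPM in livers and to 4208 to 29579 CPM in the tumors.

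The first question was how the endothelial markers in tumors differ from those in liver. Of the 10 genes, 7 fell and 1 rose in Aldafermin + MYC tumors, 6 fell and 1 rose in FGF19 + MYC tumors, and 7 fell in sgTrp53 + MYC tumors (edgeR quasi-likelihood test, adjusted p under 0.05). These counts stand against all 14333 genes tested, of which 31.9% were lower and 38.4% higher in Aldafermin + MYC tumors, 32.9% lower and 36.9% higher in FGF19 + MYC tumors, and 33% lower and 36.9% higher in sgTrp53 + MYC tumors. The members' median change was -1.83, -1.41 and -2.14 on the log2 scale in the same order, where that of all genes was 0.13, 0.06 and 0.07. Kdr, Tek, Stab2, Clec4g, Eng and Vwf were the 6 genes whose tumor values all lay below the livers' values, in each of these comparisons. Of all genes tested, 58.8%, 62.5% and 56.2% did not overlap the livers, in either direction, in Aldafermin + MYC, FGF19 + MYC and sgTrp53 + MYC tumors, so that 6 of 10 is near the background. The comparisons share the same 5 livers and are not independent of each other.

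**Figure D1:**
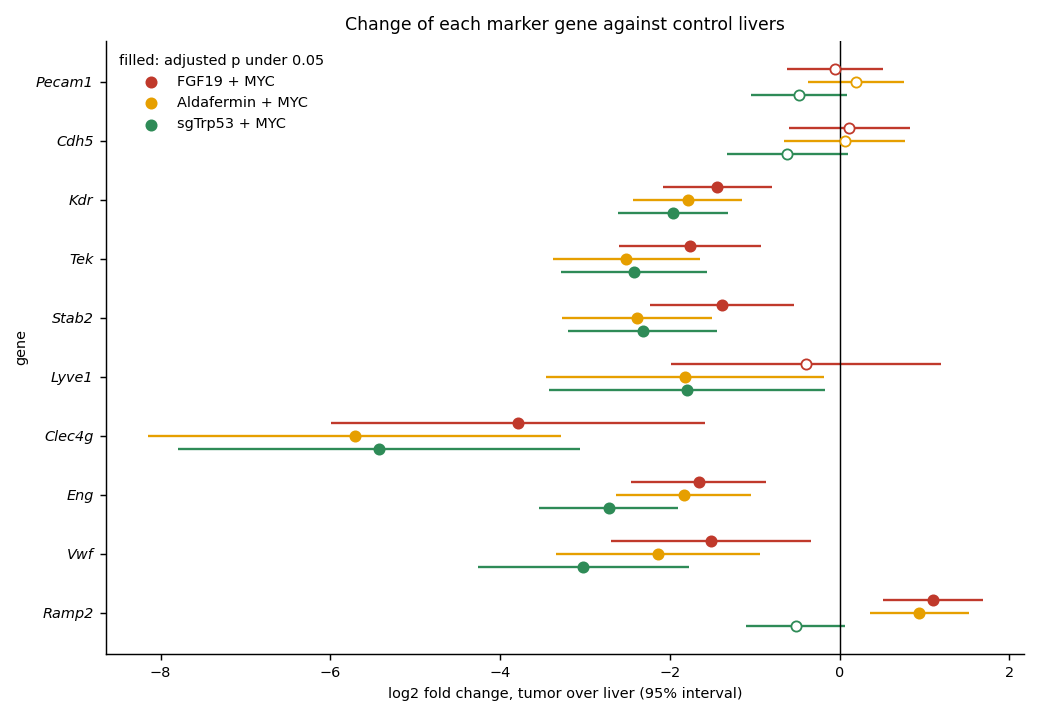
Log2 fold change of each marker gene (horizontal axis) in the 3 tumor groups against the livers, with its 95% interval as a line and filled points for an adjusted p under 0.05. Clec4g lies farthest to the left, at -5.71, -3.79 and -5.43, Pecam1 and Cdh5 lie near 0 with open points, and Ramp2 lies to the right of 0 in Aldafermin + MYC and FGF19 + MYC tumors. Scaled by library totals without TMM, the points of Pecam1, Lyve1, Cdh5 and Ramp2 named in the text change side.

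The scaling bears on these directions, since the livers had TMM factors of 0.61 to 0.68 and the tumors of 1.00 to 1.31. With library totals in place of TMM, the median log2 change of all genes moved from near 0 to 0.97 in Aldafermin + MYC, 0.91 in FGF19 + MYC and 0.95 in sgTrp53 + MYC tumors. Of the members, 3 were then called higher and 5 lower in Aldafermin + MYC, 3 higher and 1 lower in FGF19 + MYC, and 0 higher and 6 lower in sgTrp53 + MYC tumors. The share of all genes called on this scale is not given here, so these counts are not particular to the members. Of those called higher, Pecam1 and Cdh5 lay close to the median of all genes, 0.08 and -0.04 from it in Aldafermin + MYC and -0.09 and 0.07 in FGF19 + MYC tumors. Relative to that median the members kept their places: Clec4g in Aldafermin + MYC tumors was at -5.84 with TMM and at -5.78 with library totals. None of the falls or rises that passed the test changed side under library totals, but those of Kdr, Tek, Stab2, Eng and Vwf in FGF19 + MYC tumors then had adjusted p of 0.139, 0.0641, 0.282, 0.0818 and 0.317, that of Vwf in Aldafermin + MYC tumors 0.0586, and those of Lyve1 in Aldafermin + MYC and sgTrp53 + MYC tumors 0.284 and 0.294.

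Of the sinusoidal receptors, Clec4g (ENSMUSG00000074491, GRCm39 chromosome 8, 3757064 to 3770671, minus strand) changed the most. It encodes LSECtin, a lectin of sinusoidal endothelial cells that binds glycans on pathogens and on leukocytes, and its promoter is the first one shown above. In livers it stood at 82.8, 61.6, 87.6, 93.7 and 102.3 CPM. In FGF19 + MYC tumors the values were 4.52, 5.35, 3.99, 4.23 and 12.8 CPM, and in sgTrp53 + MYC tumors 5.57, 0.574, 2.92, 0.749 and 0.138 CPM. In Aldafermin + MYC tumors they were 0.121, 0.273, 0.0534, 8.04 and 0.0842 CPM. All 15 tumors lay below all 5 livers, and 4 of the Aldafermin + MYC tumors lay far below the fifth, replicate 4. Those 4 libraries had 2 to 11 reads on the gene, where livers had 1154 to 2568, so that their levels rest on few reads. Clec4g was 52.4-fold lower in Aldafermin + MYC tumors than in livers (log2 fold change -5.71, SE 1.17, adjusted p = 0.000235), 13.8-fold lower in FGF19 + MYC tumors (-3.79, SE 1.05, adjusted p = 0.00348) and 43.1-fold lower in sgTrp53 + MYC tumors (-5.43, SE 1.13, adjusted p = 0.000296). Without Aldafermin + MYC replicate 4 the first value was -9.27, and without sgTrp53 + MYC replicate 1 the last was -6.26.

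Stab2 (ENSMUSG00000035459, chromosome 10, 86675054 to 86843889, minus strand) encodes stabilin-2, the endocytic receptor through which sinusoidal endothelium clears hyaluronan. Its levels were 66.8, 50.5, 69.9, 82.1 and 77.3 CPM in livers and 17.0, 22, 28.1, 27.2 and 38.4 CPM in FGF19 + MYC tumors. They were 6.80, 11.8, 21.9, 21.7 and 4.10 CPM in Aldafermin + MYC tumors and 6.61, 6.94, 23.3, 18.2 and 14.3 CPM in sgTrp53 + MYC tumors. Every tumor was below every liver, and the highest tumor, FGF19 + MYC replicate 5, was also the FGF19 + MYC tumor highest in Clec4g. Stab2 was 5.23-fold lower in Aldafermin + MYC (log2 fold change -2.39, SE 0.42, adjusted p = 5.29e-05), 2.61-fold lower in FGF19 + MYC (-1.38, SE 0.41, adjusted p = 0.00539) and 4.99-fold lower in sgTrp53 + MYC tumors (-2.32, SE 0.42, adjusted p = 6.68e-05).

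Lyve1 (ENSMUSG00000030787, chromosome 7, 110448585 to 110462460, minus strand), a hyaluronan receptor of lymphatic and sinusoidal endothelium, varied most among livers, with a coefficient of variation of 79.3% where Clec4g had 17.8%. Livers had 9.90, 5.87, 8.04, 36.2 and 18.2 CPM, and FGF19 + MYC tumors 7.03, 8.48, 9.02, 15.3 and 19.4 CPM. Aldafermin + MYC tumors had 1.17, 0.248, 6.11, 12.2 and 2.41 CPM, and sgTrp53 + MYC tumors 4.37, 1.33, 4.87, 10.9 and 0.982 CPM. Each tumor group overlapped the livers. Lyve1 was 3.55-fold lower in Aldafermin + MYC (log2 fold change -1.83, SE 0.78, adjusted p = 0.0443) and 3.47-fold lower in sgTrp53 + MYC tumors (-1.80, SE 0.78, adjusted p = 0.0466), while FGF19 + MYC tumors were at -0.40 (95% interval -1.98 to 1.19, adjusted p = 0.655). Both calls rested on single libraries. The first was lost without Aldafermin + MYC replicate 1 (adjusted p = 0.0969), 2 (0.074), 3 (0.0522) or 5 (0.0957) or liver replicate 4 (0.162) or 5 (0.0687), and its value was -2.65 without Aldafermin + MYC replicate 4. The second was lost without liver replicate 4 (0.17) or 5 (0.0716) or sgTrp53 + MYC replicate 1 (0.072), 2 (0.0982), 3 (0.0689) or 5 (0.0981), and its value was -2.43 without sgTrp53 + MYC replicate 4.

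**Figure D2:**
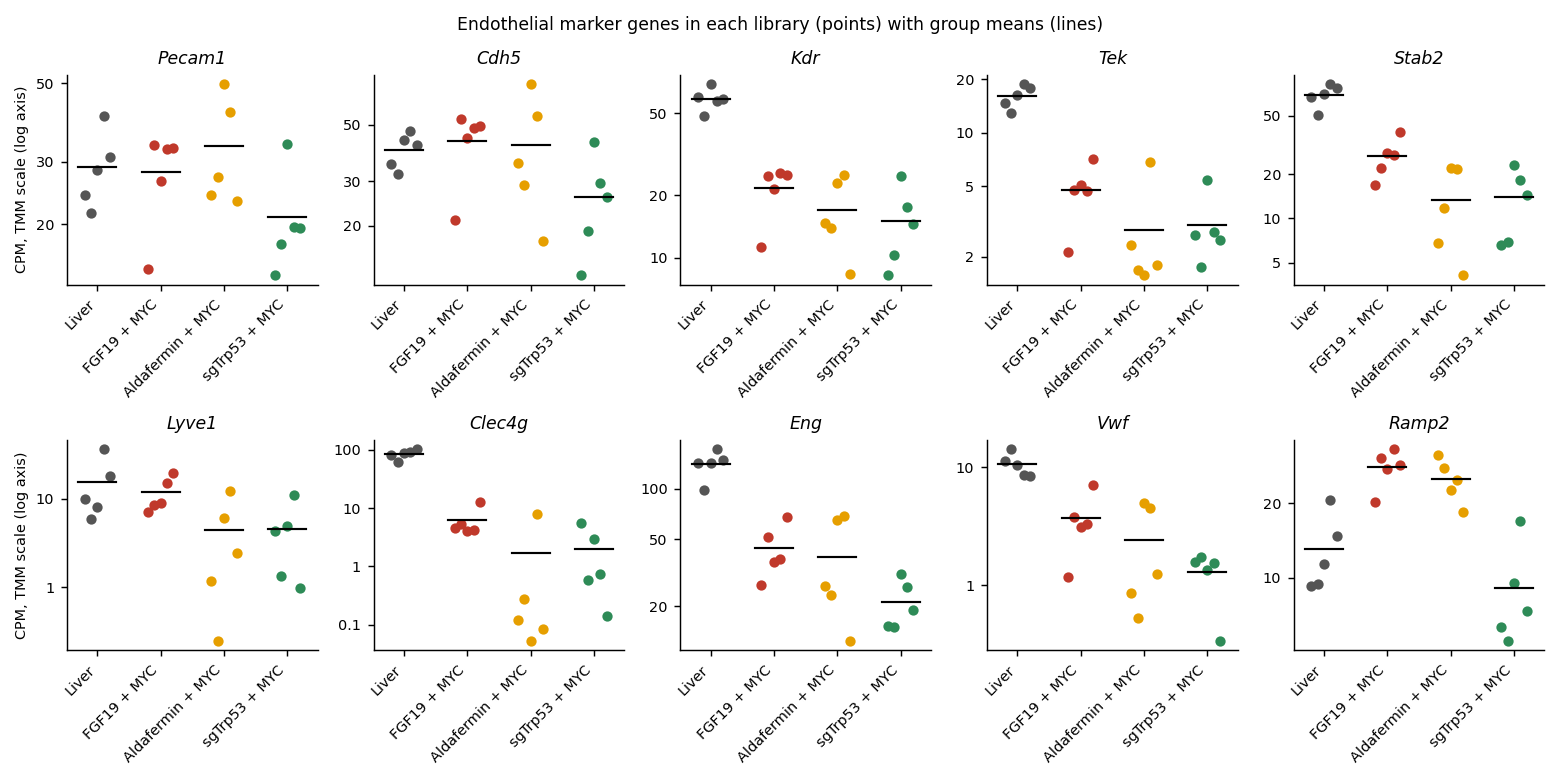
Level of each marker gene in each of the 20 libraries (points, CPM on the TMM scale, log axes that differ between panels), with the mean of each group of 5 as a line. For Clec4g, Stab2, Kdr, Tek, Eng and Vwf the livers lie above every tumor, for Pecam1, Cdh5 and Lyve1 they overlap each tumor group, and for Ramp2 the FGF19 + MYC and Aldafermin + MYC tumors lie above all sgTrp53 + MYC tumors.

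Kdr (ENSMUSG00000062960, chromosome 5, 76093487 to 76139884, minus strand) encodes VEGFR2, the main signalling receptor for VEGF-A on endothelium. It was even among livers, with 59.7, 48.6, 69.1, 57.4 and 58.8 CPM. FGF19 + MYC tumors had 11.3, 24.8, 21.4, 25.7 and 25.0 CPM, Aldafermin + MYC tumors 14.7, 13.8, 22.9, 25.2 and 8.33 CPM, and sgTrp53 + MYC tumors 8.22, 10.3, 24.8, 17.5 and 14.5 CPM. All 15 tumors were below the lowest liver. Kdr was 3.46-fold lower in Aldafermin + MYC (log2 fold change -1.79, SE 0.31, adjusted p = 4.05e-05), 2.71-fold lower in FGF19 + MYC (-1.44, SE 0.31, adjusted p = 0.000359) and 3.90-fold lower in sgTrp53 + MYC tumors (-1.96, SE 0.31, adjusted p = 1.45e-05).

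Around Kdr, 7 of 8 listed ligands, receptors and co-receptors were tested, and Pgf did not pass the filter on low counts. Against livers 1 was higher and 3 were lower in Aldafermin + MYC, 1 and 2 in FGF19 + MYC and 1 and 3 in sgTrp53 + MYC tumors. Vegfa, the ligand that drives sprouting and maintains sinusoidal pores, averaged 176 CPM in livers and 32.2 to 36.3 CPM in the tumor groups, and fell by 2.40, 2.45 and 2.28 on the log2 scale in Aldafermin + MYC, FGF19 + MYC and sgTrp53 + MYC tumors (adjusted p = 1.3e-10, 1.03e-10 and 2.37e-10). Nrp1, a co-receptor of VEGFR2, fell by 2.73, 2.45 and 3.24 (adjusted p = 3.4e-06, 1.09e-05 and 4.49e-07). Vegfb, a ligand of VEGFR1, rose in all 3 tumor groups, by 1.11, 1.02 and 0.65 (adjusted p = 1.17e-05, 3.27e-05 and 0.00233). Flt1, which encodes VEGFR1 and binds VEGF-A without strong signalling, was at -0.35, -0.54 and -0.58 and did not pass the test (adjusted p = 0.344, 0.139 and 0.115). Vegfc, the lymphatic growth factor, fell in sgTrp53 + MYC tumors by 1.48 (adjusted p = 0.000133) and was at -0.14 and -0.02 in the other tumors. Nrp2 fell in Aldafermin + MYC tumors by 0.91 (adjusted p = 0.0447), and it was at 0.10 and 0.55 in FGF19 + MYC and sgTrp53 + MYC tumors.

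Tek (ENSMUSG00000006386, chromosome 4, 94627291 to 94763224, plus strand) encodes TIE2, the receptor through which angiopoietins stabilize or loosen vessels. Its levels in livers were 14.8, 12.9, 16.3, 18.8 and 17.9 CPM, and in FGF19 + MYC tumors 2.12, 4.77, 5.07, 4.67 and 7.10 CPM. In Aldafermin + MYC tumors they were 2.33, 1.69, 1.57, 6.81 and 1.80 CPM, and in sgTrp53 + MYC tumors 2.64, 1.75, 5.41, 2.75 and 2.49 CPM. All tumors lay below all livers, and 1 Aldafermin + MYC tumor, replicate 4, and 1 sgTrp53 + MYC tumor, replicate 3, lay above the others of their groups. Tek was 5.71-fold lower in Aldafermin + MYC (log2 fold change -2.51, SE 0.41, adjusted p = 2.4e-05), 3.39-fold lower in FGF19 + MYC (-1.76, SE 0.40, adjusted p = 0.000702) and 5.36-fold lower in sgTrp53 + MYC tumors (-2.42, SE 0.41, adjusted p = 3.18e-05). Without Aldafermin + MYC replicate 4 the first value was -3.12.

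The ligands of TIE2 moved in opposite directions. Angpt1, the agonist, fell from a mean of 1.77 CPM in livers by 2.15, 1.77 and 1.57 on the log2 scale in Aldafermin + MYC, FGF19 + MYC and sgTrp53 + MYC tumors (adjusted p = 0.00147, 0.00612 and 0.0105). Angpt2, which is released by activated endothelium and often acts against Angpt1, rose by 2.15 and 1.40 in Aldafermin + MYC and FGF19 + MYC tumors (adjusted p = 0.00237 and 0.0319) and was at 1.07 in sgTrp53 + MYC tumors (adjusted p = 0.0918). Tie1, the co-receptor, fell in sgTrp53 + MYC tumors by 1.11 (adjusted p = 0.00404) and was at -0.39 and -0.19 in the other tumors.

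Eng (ENSMUSG00000026814, chromosome 2, 32535543 to 32574661, plus strand) encodes endoglin, the co-receptor for BMP9 and BMP10 on endothelium. Livers had 141.9, 97.8, 141.4, 171.2 and 147.7 CPM. FGF19 + MYC tumors had 26.8, 51.6, 36.5, 38.4 and 68.0 CPM, Aldafermin + MYC tumors 26.4, 23.1, 65.3, 68.5 and 12.5 CPM, and sgTrp53 + MYC tumors 15.3, 15.1, 30.9, 25.8 and 19 CPM. Each tumor lay below the lowest liver. Eng was 3.58-fold lower in Aldafermin + MYC (log2 fold change -1.84, SE 0.38, adjusted p = 0.000276), 3.16-fold lower in FGF19 + MYC (-1.66, SE 0.38, adjusted p = 7e-04) and 6.59-fold lower in sgTrp53 + MYC tumors (-2.72, SE 0.39, adjusted p = 5.01e-06).

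Of 6 listed ligands and receptors around Eng, 5 were tested, and Bmp10 was too low. Gdf2, which encodes BMP9 and is made by stellate cells of the liver, averaged 34.9 CPM in livers and fell by 4.51, 3.37 and 4.76 on the log2 scale in Aldafermin + MYC, FGF19 + MYC and sgTrp53 + MYC tumors (adjusted p = 0.000214, 0.00181 and 0.000125). Bmpr2, the type II receptor, fell by 0.91, 0.70 and 0.51 (adjusted p = 0.000708, 0.00531 and 0.0338), though with library totals the value turned to 0.16 in FGF19 + MYC and 0.39 in sgTrp53 + MYC tumors. Acvrl1, which encodes ALK1, the type I receptor that pairs with endoglin, rose by 0.76 in Aldafermin + MYC tumors (adjusted p = 0.0437), and was at 0.49 and -0.33 in FGF19 + MYC and sgTrp53 + MYC tumors. Tgfbr2 fell by 0.90 in sgTrp53 + MYC tumors (adjusted p = 0.00747), where library totals gave 0.0065, and was at 0.19 and 0.03 in the other tumors, and Tgfb1 passed the test in none of the 3.

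Vwf (ENSMUSG00000001930, chromosome 6, 125523737 to 125663642, plus strand) encodes von Willebrand factor, which tethers platelets to injured vessels and carries factor VIII. Livers had 11.3, 14.2, 10.4, 8.54 and 8.49 CPM, and FGF19 + MYC tumors 1.17, 3.79, 3.10, 3.29 and 7.14 CPM. Aldafermin + MYC tumors had 0.850, 0.521, 4.96, 4.54 and 1.23 CPM, and sgTrp53 + MYC tumors 1.58, 1.72, 1.35, 1.52 and 0.338 CPM. All tumors lay below the livers, and 4 of 5 sgTrp53 + MYC tumors lay close to each other. Vwf was 4.39-fold lower in Aldafermin + MYC (log2 fold change -2.13, SE 0.58, adjusted p = 0.00275), 2.86-fold lower in FGF19 + MYC (-1.51, SE 0.56, adjusted p = 0.0224) and 8.11-fold lower in sgTrp53 + MYC tumors (-3.02, SE 0.59, adjusted p = 0.000158). Without FGF19 + MYC replicate 1 the FGF19 + MYC value was -1.29 with an adjusted p of 0.0534. F8, the factor VIII gene, fell by 2.96, 2.35 and 2.27 on the log2 scale in Aldafermin + MYC, FGF19 + MYC and sgTrp53 + MYC tumors (adjusted p = 9.35e-08, 1.43e-06 and 1.94e-06). Adamts13, the protease that cleaves von Willebrand factor and is made by stellate cells, fell by 4.27, 2.93 and 4.69 (adjusted p = 8.04e-05, 0.0015 and 2.95e-05), and Gp1ba, the platelet receptor gene, was too low to be tested. In a list of 6 platelet genes the 3 tested gave 1 higher and 1 lower in Aldafermin + MYC, 0 and 1 in FGF19 + MYC and 0 and 2 in sgTrp53 + MYC tumors.

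The junction genes stood apart from these receptors. Pecam1 (ENSMUSG00000020717, chromosome 11, 106543689 to 106641454, minus strand) encodes CD31, an adhesion molecule of endothelial junctions, and had 24.1, 21.4, 28.4, 40.5 and 31.0 CPM in livers. FGF19 + MYC tumors had 15.0, 33.4, 26.4, 32.6 and 32.8 CPM, Aldafermin + MYC tumors 24.2, 27.2, 49.8, 41.5 and 23.2 CPM, and sgTrp53 + MYC tumors 14.3, 17.6, 33.6, 19.6 and 19.6 CPM. The groups overlapped. The log2 fold change against livers was 0.19 in Aldafermin + MYC (95% interval -0.37 to 0.75, adjusted p = 0.541), -0.05 in FGF19 + MYC (-0.62 to 0.51, adjusted p = 0.877) and -0.47 in sgTrp53 + MYC tumors (-1.04 to 0.09, adjusted p = 0.126). With library totals in place of TMM the value in FGF19 + MYC tumors turned to 0.82 and that in sgTrp53 + MYC tumors to 0.44, and Pecam1 passed the test as higher in Aldafermin + MYC and FGF19 + MYC tumors (adjusted p = 0.00509 and 0.025).

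Cdh5 (ENSMUSG00000031871, chromosome 8, 104828231 to 104871143, plus strand) encodes VE-cadherin, the adhesion molecule that holds endothelial cells together. Livers had 35.1, 31.9, 43.7, 47.2 and 41.8 CPM, FGF19 + MYC tumors 21.1, 52.5, 44.4, 48.7 and 49.2 CPM. Aldafermin + MYC tumors had 35.4, 29.1, 72.2, 54.0 and 17.5 CPM, and sgTrp53 + MYC tumors 12.8, 19, 42.9, 29.6 and 25.9 CPM. The Aldafermin + MYC tumors spread on both sides of the livers, and 4 of 5 sgTrp53 + MYC tumors lay below the lowest liver. The log2 fold change was 0.06 in Aldafermin + MYC (95% interval -0.65 to 0.77, adjusted p = 0.884), 0.11 in FGF19 + MYC (-0.60 to 0.82, adjusted p = 0.775) and -0.62 in sgTrp53 + MYC tumors (-1.33 to 0.10, adjusted p = 0.114). Without sgTrp53 + MYC replicate 3, Cdh5 and Pecam1 in sgTrp53 + MYC tumors were at -0.87 and -0.71 (adjusted p = 0.0326 and 0.0236). With library totals Cdh5 passed as higher in Aldafermin + MYC and FGF19 + MYC tumors (0.94 and 0.98, adjusted p = 0.0341 and 0.0282), and in sgTrp53 + MYC tumors it turned to 0.30.

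Ramp2 (ENSMUSG00000001240, chromosome 11, 101136358 to 101150419, plus strand) was the member that rose. It encodes the accessory protein that makes the calcitonin receptor-like receptor a receptor for adrenomedullin, a peptide that tightens vessels. Livers had 9.25, 9.46, 11.4, 20.6 and 14.8 CPM, FGF19 + MYC tumors 20.3, 30.4, 27.6, 33.0 and 28.7 CPM. Aldafermin + MYC tumors had 31.5, 27.8, 22.6, 24.8 and 18.5 CPM, and sgTrp53 + MYC tumors 6.31, 5.58, 9.54, 16.9 and 7.32 CPM. All but 1 tumor of the FGF19 + MYC group and all but 1 of the Aldafermin + MYC group lay above the highest liver. Ramp2 was 1.91-fold higher in Aldafermin + MYC (log2 fold change 0.94, SE 0.28, adjusted p = 0.00576) and 2.14-fold higher in FGF19 + MYC tumors (1.10, SE 0.28, adjusted p = 0.0018). In sgTrp53 + MYC tumors it was at -0.52 (95% interval -1.10 to 0.06, adjusted p = 0.104), a value that turned to 0.38 with library totals and was -0.86 (adjusted p = 0.00394) without sgTrp53 + MYC replicate 4.

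The other genes of the adrenomedullin receptor moved in different directions. Calcrl, the receptor itself, fell by 1.91, 1.63 and 1.70 on the log2 scale in Aldafermin + MYC, FGF19 + MYC and sgTrp53 + MYC tumors (adjusted p = 3.13e-06, 1.85e-05 and 1.08e-05). Ramp1, which makes the same receptor one for CGRP, fell by 2.72 and 3.08 in Aldafermin + MYC and FGF19 + MYC tumors (adjusted p = 0.00735 and 0.00379) and was at -0.08 in sgTrp53 + MYC tumors. Ramp3, the third accessory protein, rose by 3.10, 1.55 and 1.64 from a mean of 0.264 CPM in livers (adjusted p = 3.33e-06, 0.00362 and 0.00197). Adm, the ligand, passed the test in none of the 3 comparisons.

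Members can be ranked only per length, so the mean level of each was divided by its exon length in kilobases. Here the exons of all transcripts of a gene were merged, and the order depends on this choice. Merged exons gave 3969 bases for Ramp2, 4381 for Cdh5 and 10002 for Pecam1, where their longest transcripts have 2104, 4114 and 4875. No order was made with transcript lengths. In livers Clec4g and Eng led, at 18.1 and 17.9 CPM per kilobase, and they did not differ beyond their spread, with overlapping libraries. Cdh5, Stab2 and Kdr followed at 9.11, 6.43 and 6.38, then Lyve1, Ramp2, Pecam1 and Tek at 3.75, 3.29, 2.90 and 2.68, and Vwf was last at 0.632. Between neighbours in this order, the livers' values were apart only from Eng to Cdh5 and from Tek to Vwf. In each tumor group Cdh5 led, at 9.49 in Aldafermin + MYC, 9.85 in FGF19 + MYC and 5.94 in sgTrp53 + MYC tumors, and every gene overlapped the next in the order. Clec4g was the ninth in Aldafermin + MYC and sgTrp53 + MYC tumors, at 0.361 and 0.419, and the eighth in FGF19 + MYC tumors, at 1.3. Ramp2 was the second in Aldafermin + MYC and FGF19 + MYC tumors, at 6.30 and 7.05, and the third in sgTrp53 + MYC tumors, at 2.30.

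Since Cdh5 is a general marker of endothelium, the level of every other member was also set against it within each library, a description chosen after the values were seen and given with no test. Relative to Cdh5 on the log2 scale, Clec4g averaged 1.09 in livers, -2.88 in FGF19 + MYC, -6.67 in Aldafermin + MYC and -4.46 in sgTrp53 + MYC tumors. Stab2 averaged 0.79, -0.69, -1.75 and -0.97 in the same order, and Kdr 0.56, -0.99, -1.23 and -0.78. Eng went from 1.80 in livers to 0.03, -0.21 and -0.24. For Kdr, Tek, Stab2, Clec4g, Eng and Vwf every liver lay above every tumor on this scale as well. Lyve1 overlapped the livers in each tumor group, with averages of -1.65 in livers and -1.90, -4.00 and -2.91 in the tumors. Ramp2 averaged -1.66 in livers, -0.57 in FGF19 + MYC, -0.59 in Aldafermin + MYC and -1.51 in sgTrp53 + MYC tumors, and only the FGF19 + MYC tumors lay wholly above the livers. Pecam1 stayed within -0.61 to -0.23 in all 4 group means.

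**Figure D3:**
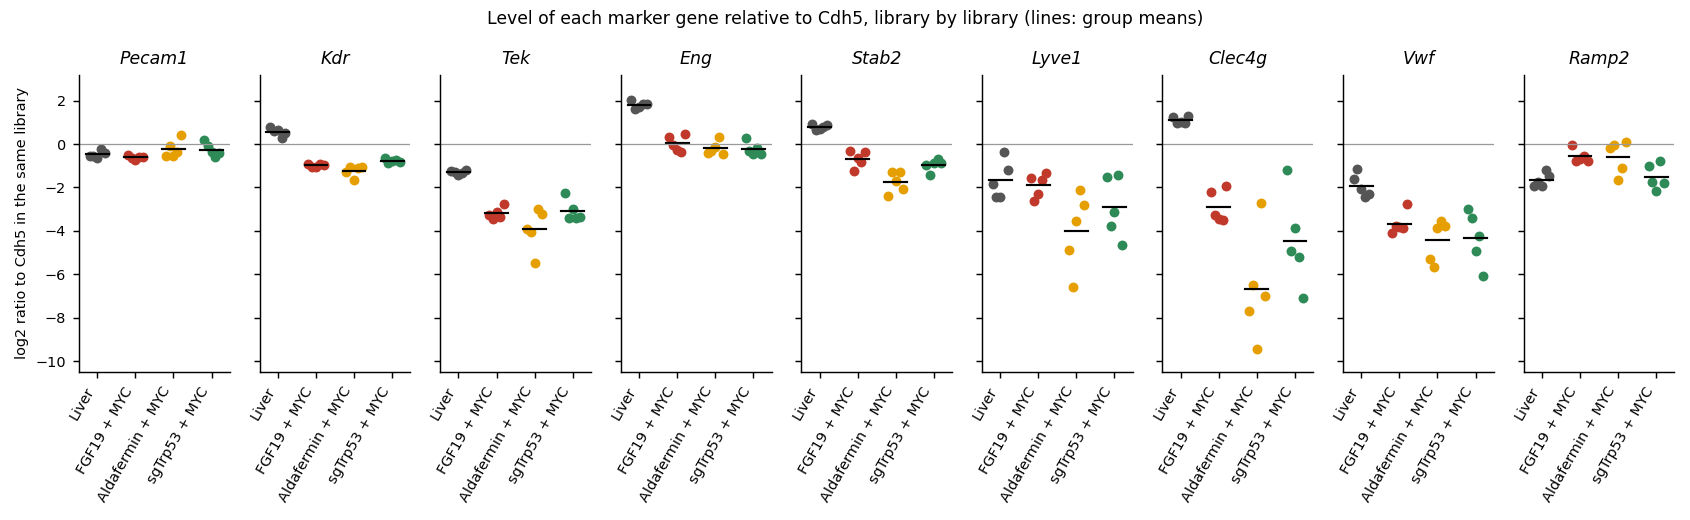
Log2 ratio of each of the other 9 marker genes to Cdh5 in the same library (vertical axis), with 5 points per group and lines for group means. The livers lie above all tumors for Kdr, Tek, Eng, Stab2, Clec4g and Vwf, and Clec4g falls lowest, to -9.42 in an Aldafermin + MYC tumor.

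The mean log2 level of the 3 sinusoidal members less that of the 6 general members gave 1 value per library. It was 0.27, -0.04, 0.02, 0.57 and 0.47 in livers and -0.64, -1.39, -1.16, -1.05 and -0.44 in FGF19 + MYC tumors. Aldafermin + MYC tumors had -3.92, -3.86, -3.32, -1.19 and -3.26, and sgTrp53 + MYC tumors -0.65, -2.31, -1.50, -1.49 and -3.06. The livers stood above every tumor, with a mean of 0.26 ± 0.27 (SD, n = 5) against -0.93 ± 0.39, -3.11 ± 1.11 and -1.80 ± 0.92 in the same order of tumors. The balance rested much on Clec4g: without it the means were -0.25 in livers, -0.40 in FGF19 + MYC, -1.84 in Aldafermin + MYC and -0.96 in sgTrp53 + MYC tumors, and the livers, at -0.65 to 0.31, then overlapped the FGF19 + MYC tumors (-0.94 to -0.0732) and the sgTrp53 + MYC tumors (-1.61 to -0.11) but not the Aldafermin + MYC tumors (-3.01 to -0.85).

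The next question was whether tumors raised with the analog and with the natural hormone differ, where both carry MYC. Whether their times of harvest and series of injections matched is not given for these libraries. Aldafermin differs from FGF19 by a short deletion and a few substitutions near its start. Between Aldafermin + MYC and FGF19 + MYC tumors 0 of the 10 genes passed the test, where 0% of all genes were higher and 0% lower. Of the 14333 genes, 1048 had an unadjusted p under 0.05, and DESeq2 called 96, none of them a member. Stab2 had the smallest unadjusted p, 0.0233, with a log2 difference of -1.0 (95% interval -1.85 to -0.15, adjusted p = 0.559). Clec4g was at -1.92 (-4.06 to 0.21, adjusted p = 0.759), Lyve1 at -1.43 (-3.05 to 0.19, adjusted p = 0.763) and Tek at -0.75 (-1.58 to 0.08, adjusted p = 0.755). For Cdh5 the interval was -0.76 to 0.65, for Pecam1 -0.32 to 0.80, for Kdr -0.98 to 0.28, for Eng -0.95 to 0.60, for Vwf -1.79 to 0.55 and for Ramp2 -0.74 to 0.41. The interval of Ramp2, for example, ran from 0.599-fold to 1.33-fold, so the absence of calls does not show that the 2 kinds of tumor are alike. The value for Clec4g depended on Aldafermin + MYC replicate 4: without it the difference was -5.48 with an adjusted p of 0.0151. Relative to Cdh5, Stab2 lay at -2.37 to -1.29 in Aldafermin + MYC and at -1.26 to -0.31 in FGF19 + MYC tumors, without overlap. It was the only member without overlap on this scale, which was chosen after the values were seen and was not tested. In CPM Stab2 overlapped between these groups, where 1.46% of all genes did not.

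The tumors raised with the hormone or its analog were then set together against sgTrp53 + MYC tumors, which carry MYC without either. Ramp2 and Eng passed the test as higher in the former and no member passed as lower, 2 of 10 against 11.6% of all genes higher and 12.1% lower. Ramp2 was 2.90-fold higher (95% interval 2.00 to 4.20, log2 difference 1.54, SE 0.26, adjusted p = 0.000373), and all 10 hormone tumors, at 18.5 to 33.0 CPM, lay above all 5 sgTrp53 + MYC tumors, at 5.58 to 16.9 CPM, where 5.7% of all genes did not overlap. It also passed in each group alone (Aldafermin + MYC 1.45, adjusted p = 0.00184, and FGF19 + MYC 1.62, adjusted p = 0.000907). Relative to Cdh5 in the same library the difference of Ramp2 was 0.93, with overlapping groups. In the GENCODE annotation 1133 of 3969 exon bases of Ramp2 (28.6%) overlap Vps25 on the same strand. The reads were counted on RefSeq genes, whose overlap was not looked up. The share of reads falling on more than one gene was higher in the table of sgTrp53 + MYC libraries, as given above. The part of the overlap with Vps25 in the difference was not tested for Ramp2 itself. Among the 240 genes tested with 10% to 30% of such overlap, the median log2 difference in this comparison was 0.0032, and it was 0.088 among the 127 genes with 30% to 60% and 0.297 among the 211 genes with over 60%. Vps25 had medians of 93.9, 90.3 and 82.0 CPM in Aldafermin + MYC, FGF19 + MYC and sgTrp53 + MYC tumors.

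Eng was higher by 0.97 on the log2 scale (SE 0.33, adjusted p = 0.0413), with overlapping groups. This call held in 7 of the 15 fits without 1 library. It was lost without Aldafermin + MYC replicate 3 (adjusted p = 0.0713) or 4 (0.0667), FGF19 + MYC replicate 2 (0.0617) or 5 (0.0692), or sgTrp53 + MYC replicate 1 (0.0847), 2 (0.0981), 4 (0.0508) or 5 (0.0916), and neither group alone passed (0.107 and 0.0596). Relative to Cdh5 in the same library the difference of Eng was 0.15, with overlapping groups. On that scale Kdr was the only member without overlap, and it was lower in the pooled tumors. Its difference was -0.33, with -1.66 to -0.90 against -0.88 to -0.64 in sgTrp53 + MYC tumors. These ratios were not tested. In GENCODE 860 of 7798 exon bases of Eng (11%) overlap Fpgs on the opposite strand, and the strand setting of the counting is not known. The part of this overlap in the difference was not tested. The other members were at 0.54 (Pecam1, adjusted p = 0.107), 0.70 (Cdh5, 0.0994), 0.35 (Kdr, 0.365), 0.28 (Tek, 0.589), 0.43 (Stab2, 0.403), 0.68 (Lyve1, 0.498), 0.68 (Clec4g, 0.613) and 1.2 (Vwf, 0.0945). Pecam1 passed without FGF19 + MYC replicate 1 (adjusted p = 0.0463), Cdh5 without Aldafermin + MYC replicate 5 (0.042), both without sgTrp53 + MYC replicate 3 (0.0294 and 0.0401), and Vwf without Aldafermin + MYC replicate 2 (0.0489). Around Eng, Tgfbr2 and Acvrl1 were higher (log2 differences 1.00 and 0.96, adjusted p = 0.00698 and 0.0226), as were Vegfc and Vegfb around Kdr (1.40 and 0.42, adjusted p = 0.000812 and 0.0486) and Tie1 beside Tek (0.82, adjusted p = 0.0392). Ramp1 and Nrp2 were lower (-2.82 and -0.96, adjusted p = 0.00502 and 0.0386).

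Further genes of endothelium were taken from lists, to see how far the members stand for their kinds of vessel. Their counts, like those of the partner and platelet lists above, stand against the shares of all genes. Against livers 31.9% to 33% of all genes were lower and 36.9% to 38.4% higher. In the pooled comparison 11.6% were higher and 12.1% lower. The shares with library totals are not given here, and the median of all genes then stood at 0.91 to 0.97. Of 13 other sinusoidal genes tested, 12 fell and 0 rose in Aldafermin + MYC, 11 fell and 0 rose in FGF19 + MYC, and 12 fell and 0 rose in sgTrp53 + MYC tumors, with median log2 fold changes of -2.54, -1.45 and -2.83. With library totals 8, 6 and 10 fell, 1 rose in each and the medians were -1.67, -0.58 and -1.94. Ehd3, an endocytic recycling protein, fell by 3.74, 2.55 and 4.10 (adjusted p = 2.25e-06, 0.000104 and 7.69e-07). Aqp1, a water channel, fell by 2.88, 1.96 and 3.91 (adjusted p = 2.48e-06, 0.00014 and 7.6e-08), and Fcna, a ficolin, by 1.10, 1.33 and 3.06 (adjusted p = 0.000263, 3.83e-05 and 1.38e-09). Gata4, a transcription factor of sinusoidal endothelium that other liver cells also express, was the one gene that passed in none of the 3 (0.15, 0.21 and -0.06) and is named after its values were seen. Against sgTrp53 + MYC tumors 4 of these 13 were higher in the pooled tumors, Fcna (1.85, adjusted p = 1.51e-05), Aqp1 (1.49, adjusted p = 0.00421), Clec1b (0.78, adjusted p = 0.0119) and Stab1 (1.15, adjusted p = 0.0447).

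Of 20 other general endothelial genes, 4 rose and 7 fell in Aldafermin + MYC, 1 rose and 6 fell in FGF19 + MYC, and 1 rose and 13 fell in sgTrp53 + MYC tumors (medians -0.55, -0.31 and -1.16). This balance turned with the scaling: with library totals 6 rose and 3 fell, 7 rose and 3 fell, and 3 rose and 4 fell (medians 0.33, 0.56 and -0.24). S1pr1, the sphingosine 1-phosphate receptor that keeps vessels tight, fell by 2.79, 2.90 and 2.82 (adjusted p = 3.82e-08, 2.43e-08 and 3.12e-08), and Ptprb, the phosphatase that restrains TIE2, by 2.48, 2.20 and 2.79 (adjusted p = 2.19e-06, 8.65e-06 and 5.17e-07). Cd93, a lectin-like receptor of growing vessels, rose by 1.99, 1.98 and 1.37 (adjusted p = 0.000212, 0.000227 and 0.0045). Against sgTrp53 + MYC tumors 5 of the 20 were higher in the pooled tumors and 0 lower.

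Genes of continuous capillaries, larger vessels and sprouts gave other counts. Of 12 genes of the former, 7 rose and 1 fell in Aldafermin + MYC, 6 rose and 1 fell in FGF19 + MYC, and 5 rose and 2 fell in sgTrp53 + MYC tumors (medians 1.37, 0.66 and 0.33), and with library totals 8, 9 and 6 rose and 0, 0 and 1 fell. Cd34, a surface protein of capillary endothelium, rose by 2.71, 2.20 and 1.96 (adjusted p = 2.48e-09, 3.87e-08 and 1.6e-07), and Vcam1, the adhesion molecule of inflamed endothelium that macrophages also carry, by 2.75, 2.02 and 1.42 (adjusted p = 1.86e-08, 8.52e-07 and 4.58e-05). Plvap, the diaphragm protein of fenestrae, fell by 1.15, 1.28 and 1.94 (adjusted p = 0.000587, 0.000234 and 2.38e-06). Of 10 sprouting genes, 7 rose in Aldafermin + MYC, 7 in FGF19 + MYC and 4 in sgTrp53 + MYC tumors, and 0 fell (medians 2.04, 1.43 and 0.94), and with library totals 8, 8 and 9 rose and 0 fell. In sgTrp53 + MYC tumors 36.9% of all genes rose, so that 4 of 10 sprouting genes and 5 of 12 capillary and large vessel genes are near the background. Nid2, a basement membrane protein, rose by 2.01, 2.13 and 1.53 (adjusted p = 2.13e-06, 1.11e-06 and 4.44e-05) and Pdgfb, which recruits pericytes, by 2.51, 1.45 and 2.21 (adjusted p = 6.09e-07, 0.000272 and 2.66e-06). Apln, the peptide of tip cells, had 0 to 3 reads in each liver and was at least 77.6-fold higher in Aldafermin + MYC, at least 28.2-fold in FGF19 + MYC and at least 36.7-fold in sgTrp53 + MYC tumors. The first bound rested on Aldafermin + MYC replicate 3, at 40.2 CPM where the next tumor had 7.43, and was 32.7-fold without it. Its receptor gene Aplnr had 0 to 2 reads in each liver and was at least 35.6-fold, 12.4-fold and 14.7-fold higher, both counted against 3 reads in each liver.

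**Figure D4:**
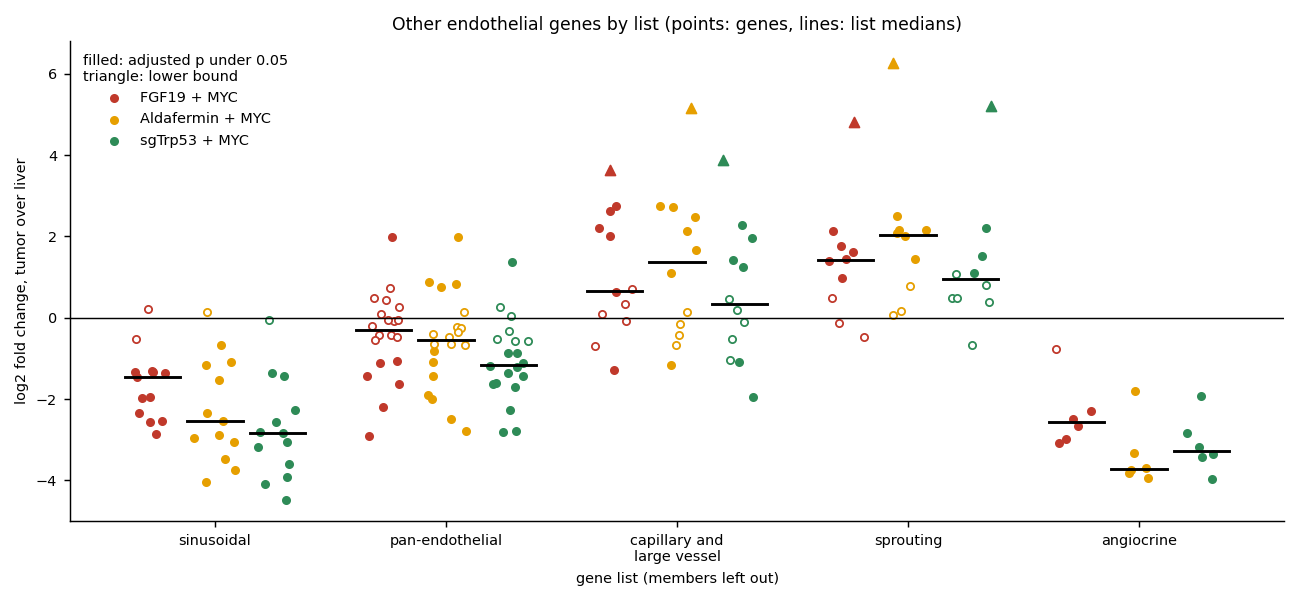
Log2 fold change against livers (vertical axis) of genes in 5 lists that leave out the 10 members, for each tumor group, with filled points for an adjusted p under 0.05 and lines for list medians. The sinusoidal and angiocrine genes lie mostly below 0, with medians from -3.72 to -1.45, and the sprouting genes mostly above it, with medians from 0.94 to 2.04. Triangles are lower bounds for Apln and Aplnr, which had 0 to 3 reads in livers. With library totals the medians of the sinusoidal and angiocrine genes stay below 0 and those of the general endothelial genes turn to 0.33 and 0.56 in Aldafermin + MYC and FGF19 + MYC tumors.

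Angiocrine factors, which sinusoidal and central vein endothelium release to hepatocytes, fell in 6 of 6 genes in Aldafermin + MYC, 5 of 6 in FGF19 + MYC and 6 of 6 in sgTrp53 + MYC tumors (medians -3.72, -2.57 and -3.27), and with library totals 5, 4 and 5 fell and 0 rose. Bmp2, which sets hepatic hepcidin together with Bmp6, fell by 3.94, 2.48 and 3.43 (adjusted p = 3.38e-06, 0.000277 and 1.16e-05), and Bmp6 by 3.74, 2.29 and 2.84 (adjusted p = 5.01e-05, 0.00266 and 0.000475). Rspo3, the amplifier of WNT signalling at the central vein, fell by 3.82, 3.08 and 3.36 (adjusted p = 0.000114, 0.000661 and 0.000275), and Hgf, the hepatocyte growth factor that stellate cells also make, by 3.33, 2.99 and 3.19 (adjusted p = 1.34e-05, 3.95e-05 and 1.85e-05). Wnt9b in FGF19 + MYC tumors, named after its value was seen, was the exception at -0.76 (adjusted p = 0.319, or 0.10 with library totals). Between Aldafermin + MYC and FGF19 + MYC tumors 0 genes passed in every list of the endothelium, by edgeR's quasi-likelihood test.

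Markers of other cells of the tissue were counted as well, and the lists differed in direction. Of 9 Kupffer cell and macrophage genes, 1 rose and 5 fell in Aldafermin + MYC, 1 rose and 3 fell in FGF19 + MYC, and 1 rose and 7 fell in sgTrp53 + MYC tumors, whereas with library totals 3 rose and 3 fell, 2 rose and 0 fell, and 1 rose and 5 fell. Their summed level was 460 to 719 CPM in livers, 307 to 880 in Aldafermin + MYC, 407 to 597 in FGF19 + MYC and 147 to 435 in sgTrp53 + MYC tumors. Against sgTrp53 + MYC tumors 5 of these 9 were higher in the pooled tumors, among them Cd5l (1.44, adjusted p = 0.00108) and Cd68 (0.77, adjusted p = 0.00454), beside Ramp2 and Eng. Of 9 stellate cell and fibroblast genes, 1 rose and 6 fell in each tumor group, and they summed to 581 to 766 CPM in livers and to 74.9 to 1015 CPM in tumors. Kupffer cell markers were at 0 reads only for Clec4f, in 1 library, and no stellate or hepatocyte marker was at 0 in any. Of 4 leukocyte genes 1 rose in Aldafermin + MYC tumors and 0 passed in the other tumors, and with library totals 4, 3 and 2 rose in Aldafermin + MYC, FGF19 + MYC and sgTrp53 + MYC tumors. Of 4 lymphatic genes, 2 were tested, Prox1 and Flt4, which hepatocytes and sinusoidal endothelium also express, and both fell in each tumor group. Their part in the values of the members was not tested.

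All 8 hepatocyte genes fell in every tumor group, and the mean log2 level of the 8 ran from 12.9 to 13.4 in livers. It was 8.06, 6.97, 7.40, 10.1 and 8.70 in Aldafermin + MYC, 8.15, 9.20, 8.74, 9.06 and 10.7 in FGF19 + MYC, and 9.53, 7.47, 8.52, 7.59 and 7.04 in sgTrp53 + MYC tumors. The highest tumor of each of the first 2 groups, Aldafermin + MYC replicate 4 and FGF19 + MYC replicate 5, was also the highest of its group in Clec4g. Over the 15 tumors the level of Clec4g followed this score (Pearson r = 0.78, permutation p = 0.00071, adjusted over 10 relations 0.00415, Spearman rho = 0.81, permutation p = 0.0005). Tek gave r = 0.78 (permutation p = 0.00083, adjusted 0.00415, rho = 0.76, permutation p = 0.00146), Lyve1 r = 0.69 (0.00375, adjusted 0.0119, rho = 0.70, permutation p = 0.00466) and Vwf r = 0.69 (0.00476, adjusted 0.0119, rho = 0.61, permutation p = 0.0165). Without the 2 tumors farthest from the median score, FGF19 + MYC replicate 5 and Aldafermin + MYC replicate 4, r was 0.69, 0.61, 0.60 and 0.50 for these genes, and within groups it was 0.80, 0.74, 0.62 and 0.60. For Eng, Stab2, Kdr, Ramp2, Pecam1 and Cdh5 r was 0.46, 0.32, 0.32, 0.27, 0.26 and 0.22, with permutation p of 0.0869 to 0.436. The part of hepatocyte RNA in the levels of the members was not tested. With the tumor of the highest hepatocyte score in each group left out, the 10 members gave the same calls against livers but for Lyve1 in sgTrp53 + MYC tumors (adjusted p = 0.0556), Eng was no longer called against sgTrp53 + MYC tumors (0.62, adjusted p = 0.181), and Clec4g was lower in Aldafermin + MYC than in FGF19 + MYC tumors (-5.03, adjusted p = 0.007). This setting removed Aldafermin + MYC replicate 4, the highest of its group in Clec4g, by a score that Clec4g follows. The Aldafermin + MYC tumors kept had 2 to 11 reads on Clec4g. With all libraries the adjusted p was 0.759, so this call does not show that the 2 kinds of tumor differ.

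**Figure D5:**
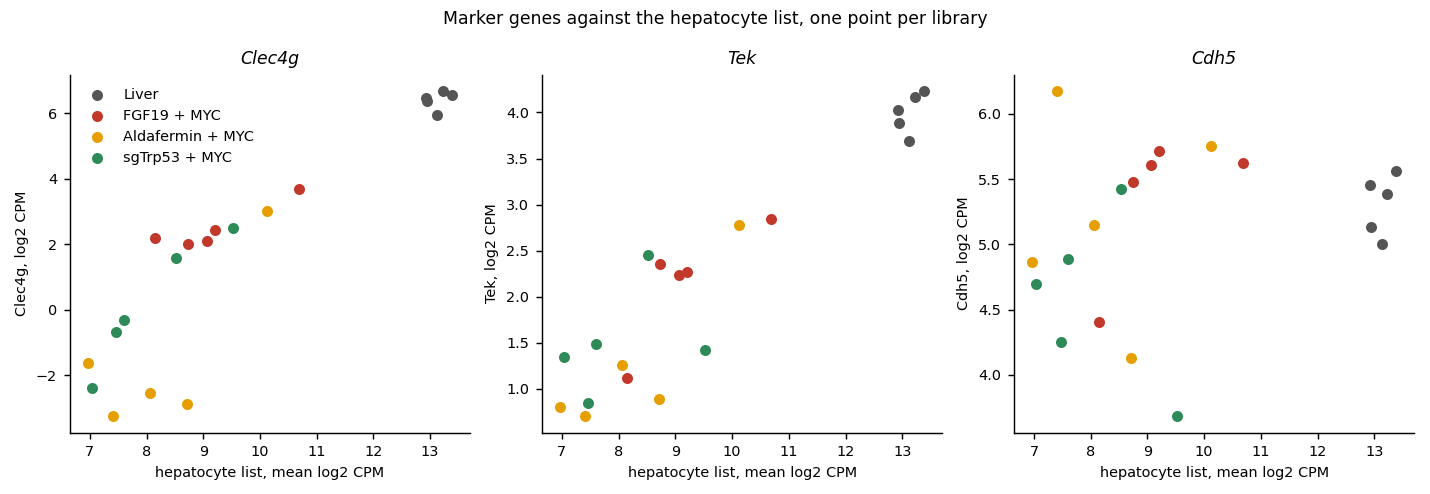
Level of Clec4g, Tek and Cdh5 (vertical axes, log2 CPM) against the mean log2 CPM of 8 hepatocyte genes (horizontal axis) in the 20 libraries, colored by group. Among the 15 tumors Clec4g and Tek are higher where the hepatocyte genes are higher (r = 0.78 for both) and Cdh5 varies without such an order (r = 0.22), and the 5 livers lie apart at 12.9 to 13.4.

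After group means were removed, the members varied together across the 20 libraries to different degrees. Over 45 pairs the median Pearson r was 0.51, with the highest for Cdh5 and Kdr (0.96) and Pecam1 and Cdh5 (0.91) and the lowest for Vwf and Ramp2 (-0.02). Clec4g was close to Tek (0.72) and not to Cdh5 (0.12). Among 10890 other genes averaging 5 CPM or more, those most like the mean of the members were Flt4 (r = 0.97), Pde2a (0.96), Slc43a3 (0.93), Myh10 (0.92), Ptprb (0.92), Tie1 (0.92), Rcsd1 (0.91), Npr1 (0.91), Gucy1a1 (0.90) and Arhgef15 (0.90). The single closest gene was Tie1 for Pecam1 (0.96), Cd93 for Cdh5 (0.96), Pcdh12 for Kdr (0.94), F8 for Tek (0.89), Ptgs1 for Stab2 (0.95), Oit3 for Lyve1 (0.89), Vipr1 for Clec4g (0.93), Myh10 for Eng (0.94), Reln for Vwf (0.90) and Tcf7l1 for Ramp2 (0.80). These correlations describe the same libraries, whose share of endothelial RNA is common to all genes of that tissue.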

How the data were processed

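RNA sequencing of 20 mouse liver or liver tumor libraries (TruSeq stranded mRNA, paired reads of 150 bases) was used. The authors aligned the reads with HISAT2 to the Mm39 build, counted them per RefSeq gene with htseq-count, and deposited raw counts in 2 tables, the 5 sgTrp53 + MYC libraries in one of their own. The strand setting of the counting was not given in the sources used here. The 5 summary lines of each table were removed, and 0 sample columns were left unused. The genome release used here for coordinates and exon lengths was GRCm39.

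Depth was 18004977 to 66354724 reads on genes per library. A gene was kept where 5 or more libraries reached 1 CPM, which left 14333, and these were fitted with edgeR 4.0.16 (R 4.3.3) by its quasi-likelihood test, in 1 model of 4 groups with TMM scaling, and p-values were adjusted over all genes by the Benjamini-Hochberg method. P-values of fold changes come from this fit unless another setting is named beside them. Adjusted p under 0.05 was called, and intervals are 95% intervals of the fit. Levels are CPM with TMM factors, log2 levels used a prior count of 2, and bounds for genes near 0 in livers used 3 reads per library. The groups hold 5 individual mice each, and p-values measure the spread between them. No libraries of a group agreed within sampling noise (chi-square per degree of freedom at least 13.94). The test was also run on simulated counts, with changes set only between Aldafermin + MYC and FGF19 + MYC tumors. Those counts were drawn from the fitted model itself, so the run does not bear on the other comparisons or on the scaling. Correlations with the hepatocyte genes were given p-values from random permutations of all 15 tumors (Python 3.11.15, ranks from scipy 1.17.1). These permutations ran across the tumor groups, so the p-values take no account of group.

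The 10 members and all gene lists were chosen with earlier results of these data known. Named were all members, all their ligands, receptors and partners on fixed lists, and from each other list at most the 4 genes of smallest adjusted p per comparison, with exceptions said to be so. Alternatives were DESeq2 1.42.0, other scalings and filters, the replicate number as a block, fits of fewer groups and each library left out. Correction for GC content and transcript length (known for 96.6% of genes), the tumor of highest hepatocyte score left out in each group, ratios to Cdh5 or Pecam1, the counts of gene lists with library totals and the bounds of Apln and Aplnr without single tumors were chosen after seeing the data.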

Additional observations from a re-analysis of the deposited data

Results flagged for a closer look

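Of 40 groups of 5 libraries (10 genes in 4 groups), 7 held a library far from the other 4 by Dixon's test on CPM. About 2 would be flagged if values were normal and genes independent. The members vary together and CPM were not put on a log scale, so an excess over chance is not shown. In sgTrp53 + MYC replicate 3 Pecam1 was at 33.6 CPM, where the next library had 19.6, and Tek was at 5.41 CPM, where the next had 2.75. In Aldafermin + MYC replicate 4 Tek was at 6.81 CPM against 2.33 in the next library, and Clec4g at 8.04 CPM against 0.273. In FGF19 + MYC replicate 5 Clec4g was at 12.8 CPM against 5.35. Cdh5 in FGF19 + MYC replicate 1 was low, at 21.1 CPM where the next library had 44.4, and Vwf in sgTrp53 + MYC replicate 5 was low, at 0.338 CPM where the next had 1.35.

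The change from liver to tumor differed between the tumors with Aldafermin or FGF19, pooled, and the sgTrp53 + MYC tumors for 2 genes (edgeR quasi-likelihood test of the difference). It was higher in the former by 1.54 on the log2 scale for Ramp2 and by 0.97 for Eng. The livers cancel in this test, so that it is the direct comparison of these tumors given above, and the 2 kinds of tumor were counted in different tables.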

How the results depend on the processing

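Against livers, the falls of Kdr, Tek, Stab2, Clec4g and Eng held their direction under each alternative run, and the only calls among them that were lost were those of Kdr, Tek, Stab2 and Eng in FGF19 + MYC tumors, with library totals in place of TMM. Apart from the fits without 1 library, 544 values of single genes gave 498 on the same side of the threshold and in the same direction, 18 weaker, 8 stronger, 18 of opposite sign and 2 moved. Leaving out each library in turn gave 550 values of single genes, of which 507 held, 21 were weaker, 9 stronger and 13 of opposite sign. The cause of these changes was not tested.

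With library totals 4 members rather than 7 were called in FGF19 + MYC tumors against livers and 1 rather than 2 in the pooled tumors against sgTrp53 + MYC tumors, and values turned for Pecam1 (0.82 in FGF19 + MYC and 0.44 in sgTrp53 + MYC tumors), Lyve1 (0.48 in FGF19 + MYC tumors), Cdh5 (0.30) and Ramp2 (0.38 in sgTrp53 + MYC tumors). With no filter on low counts Pecam1 in FGF19 + MYC tumors was at 0.12 and the pooled comparison called 1 member, Eng being lost (adjusted p = 0.0681), as were Lyve1 in Aldafermin + MYC (0.0682) and sgTrp53 + MYC tumors (0.0993). Cdh5 in Aldafermin + MYC tumors, close to 0, turned to -0.0283 with DESeq2, with DESeq2's size factors and with the correction for GC content and length, and to -0.0466 with the tumors of highest hepatocyte score left out. That last setting called 1 member in the pooled comparison and 1, Clec4g, between Aldafermin + MYC and FGF19 + MYC tumors, and turned Tek and Clec4g in the pooled comparison to -0.16 and -0.49. The pooled comparison called 1 member with only its own groups in the fit, 1 with Aldafermin + MYC tumors alone and 1 with FGF19 + MYC tumors alone, and with Aldafermin + MYC tumors alone Tek, Stab2, Lyve1 and Clec4g were at -0.0922, -0.0667, -0.0308 and -0.28.

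Leaving out 1 library moved the members called in the pooled comparison between 1 and 4, and those between Aldafermin + MYC and FGF19 + MYC tumors between 0 and 1. The sign changed within the ranges for Cdh5 between Aldafermin + MYC and FGF19 + MYC tumors (-0.35 to 0.13) and in Aldafermin + MYC tumors against livers (-0.23 to 0.32), for Eng between Aldafermin + MYC and FGF19 + MYC tumors (-0.47 to 0.0321), for Pecam1 and Lyve1 in FGF19 + MYC tumors against livers (-0.16 to 0.11 and -0.65 to 0.16), and for Tek and Clec4g in the pooled comparison (-0.0198 to 0.60 and -1.10 to 1.51). The balance of sinusoidal to general members was -4.30 in Aldafermin + MYC, -1.50 in FGF19 + MYC and -0.10 in livers without Stab2, -1.84, -0.40 and -0.25 without Clec4g, and 1.12 in livers without Lyve1. Relative to Pecam1 in place of Cdh5, Ramp2 in sgTrp53 + MYC tumors less livers was at -0.0696.

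The replicate numbers gave no sign of pairing libraries: 30 pairs with the same number had correlations of -0.333 to 0.333 (median -0.0226), and 1 library had its best match at its own number. With the number as a block the pooled comparison called 4 members, adding Pecam1 (adjusted p = 0.0451) and Cdh5 (0.0411), both were also called lower in sgTrp53 + MYC tumors than in livers (0.0442 and 0.0319), and Cdh5 in Aldafermin + MYC tumors against livers was at -0.0245.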
